A study of Mus musculus with 36 samples.

Results

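Sprr1a, the gene for small proline-rich protein 1A, was followed in 36 libraries of mouse pancreatic fibroblasts. It was 1 of 39017 genes in the count table, found by its symbol (ENSMUSG00000050359), and it was selected on measured values of these same libraries, so its levels are described and not tested. The fibroblasts were of the C57BL/6 strain. They were grown alone (mono-culture) or for 48 h in co-culture with a GFP-expressing tumour line, and were then parted from the tumour cells by flow cytometry on GFP. There were 4 libraries for the mono-culture and 4 for each of 8 tumour lines: the sub-clones E, H, K, M, N, T and V, and KPC1, a name that the labels do not explain. No age, sex or genotype of the fibroblasts is given here, nothing says whether the 4 libraries of a group came from separate cultures, and p-values therefore measure the spread between these libraries. Each co-culture used 1 tumour line, so differences between co-cultures are differences between these lines and their cultures, which cannot be told apart.

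Small proline-rich proteins are short, repeat-rich proteins that transglutaminases cross-link into the cornified envelope, the protein shell beneath the membrane of a dying keratinocyte. Their genes lie together in the epidermal differentiation complex, beside loricrin, the late envelope genes and the S100 calcium-binding genes. Sprr1a is also induced outside the skin, in neurons after axon injury and in heart muscle cells after stimulation through gp130, the receptor subunit shared by the interleukin-6 family of cytokines. AP-1 dimers of Fos and Jun proteins, Ets factors and POU-domain octamer factors such as Pou2f3 are known to act on promoters of this family.

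Sprr1a lies at chr3:92483952-92485895 of GRCm38 (mm10) on the minus strand, with 2 exons in GENCODE M21. The first exon, at chr3:92485850-92485895, is noncoding, and the whole coding sequence, at chr3:92484261-92484692, is in the second, at chr3:92483952-92484711. No other annotated gene overlaps it. The promoters shown were chosen on levels in these libraries. Those of Sprr1a and Sprr2k followed each other. Sprr1b and Sprr3, from the same cluster, were counted near or under the detection floor in co-culture. Sprr3 also followed Sprr1a, with a correlation of 0.84 over the 36 libraries. Motif differences between genes chosen in this way are therefore no support for a link with their levels. RefSeq windows on GRCm38.p6 were cut to the run from 250 to 21 bases before the RefSeq start, on the strand of the gene. For Sprr1a this start lies inside the first exon of GENCODE, so distances from the 2 starts differ. Capitals mark matches to AP-1 (TGANTCA), the TATA box (TATAAA), the Ets core (AGGAAG) and the octamer (ATTTGCAT), each searched on both strands.
Sprr1a, chr3:92485902-92486131, minus strand: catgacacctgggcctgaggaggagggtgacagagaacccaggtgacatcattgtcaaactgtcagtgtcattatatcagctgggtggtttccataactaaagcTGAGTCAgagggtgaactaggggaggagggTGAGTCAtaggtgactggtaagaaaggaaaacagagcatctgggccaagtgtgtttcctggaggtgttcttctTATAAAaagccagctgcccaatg
Sprr2k, chr3:92432332-92432561, plus strand: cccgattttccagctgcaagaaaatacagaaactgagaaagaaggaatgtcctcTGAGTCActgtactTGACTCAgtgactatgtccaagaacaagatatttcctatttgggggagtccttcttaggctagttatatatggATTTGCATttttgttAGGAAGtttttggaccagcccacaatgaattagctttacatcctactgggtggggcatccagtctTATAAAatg
Sprr1b, chr3:92438800-92439029, minus strand: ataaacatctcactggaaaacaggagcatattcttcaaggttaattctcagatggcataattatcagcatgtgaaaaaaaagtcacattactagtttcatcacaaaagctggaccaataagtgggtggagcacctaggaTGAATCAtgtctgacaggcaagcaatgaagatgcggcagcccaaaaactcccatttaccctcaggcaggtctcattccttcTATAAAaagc
Sprr3, chr3:92458741-92458970, minus strand: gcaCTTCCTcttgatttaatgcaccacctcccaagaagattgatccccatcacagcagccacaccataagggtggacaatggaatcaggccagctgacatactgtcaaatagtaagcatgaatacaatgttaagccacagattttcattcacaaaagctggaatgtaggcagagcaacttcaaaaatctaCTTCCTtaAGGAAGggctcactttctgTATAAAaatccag

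The Sprr1a run held 2 AP-1 matches, TGAGTCA at 146 and 116 bases before the RefSeq start, and a TATA box. Sprr2k also held 2 AP-1 matches, TGAGTCA and TGACTCA, with an octamer, an Ets core and a TATA box. Sprr1b held a single AP-1 match, TGAATCA, and Sprr3 held 3 Ets core matches and no AP-1 match. Across 32544 promoter windows of 300 bases, 7.79% held at least 1 AP-1 match and 0.464% held 2 or more, while 13.6% held the TATA box, 35.1% the Ets core and 1.75% the octamer. Of the 16 Sprr genes that were counted, 14 had a window, and 9 of these held an AP-1 match. Among them were Sprr2b, Sprr2d, Sprr2e, Sprr2f, Sprr2h and Sprr2i, which were too sparse to test. Each of these also held an octamer and a TATA box. A match to these letters is a description of the sequence and not a measured binding site.

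In the mono-culture Sprr1a was an abundant transcript. Its level was 276, 303, 213 and 168 CPM (reads relative to the library total, scaled by TMM between libraries) in replicates 1 to 4, or 240 ± 60.9 CPM (SD, n = 4). By RPKM, which divides reads by gene length and library total, it had a mean of 310 and ranked between 113 and 212 among 37746 genes. In the co-cultures every library was below the lowest mono-culture library, as was so for 4.17% of the 14439 genes with enough reads to be tested, while 3.57% had every co-culture library above the highest mono-culture library.

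The highest co-culture level was with clone K, at 46.2, 28.2, 9.46 and 16.96 CPM in replicates 1 to 4. Clone E gave 20.2, 18.1, 11.3 and 12.6 CPM, and clone H 19.7, 17.4, 3.61 and 14.5 CPM. Clone M gave 9.80, 16.03, 4.99 and 4.78 CPM. These 4 lines lay in the upper part of the order, and replicates 3 and 4 of clones K, H and M fell within the range of lines further down. Clone V gave 3.26, 7.51, 1.14 and 11.2 CPM, the widest spread of any group, with 9.78 times between its lowest and highest library. Clone N gave 8.65, 8.34, 1.95 and 2.61 CPM, and clone T 5.73, 2.91, 1.91 and 4.21 CPM. With KPC1 all 4 libraries were low and close together, at 1.90, 1.51, 1.36 and 1.65 CPM, from 22 to 36 reads each.

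**Figure D1:**
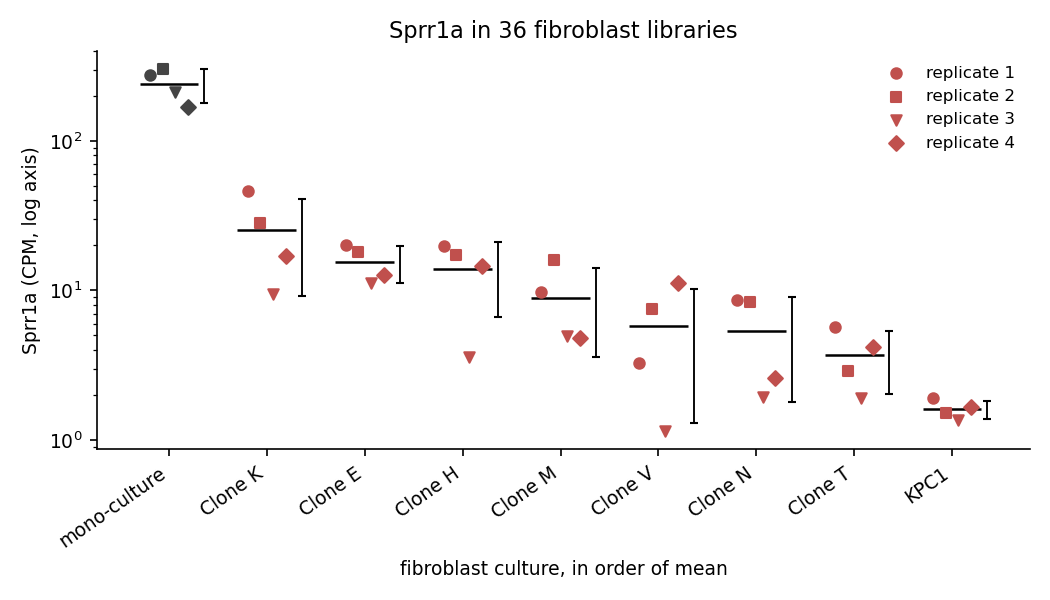
Sprr1a in CPM on a log axis for each of the 36 libraries, grouped by culture in order of the group mean. Marker shape gives the replicate number, horizontal lines are group means and the bars beside them SD (n = 4). The mono-culture libraries sit between 168 and 303 CPM, above the highest co-culture library at 46.2 CPM, and in 7 of 8 lines replicate 3 is lowest.

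As differences of mean log2 CPM from the mono-culture, the levels were -3.45 for clone K, -3.95 for clone E, -4.33 for clone H, -4.89 for clone M, -5.72 for clone N, -5.77 for clone V, -6.08 for clone T and -7.15 for KPC1. On the CPM scale the group means ran from 10.5% of the mono-culture mean with clone K (25.2 ± 15.97 CPM) to 0.668% with KPC1 (1.60 ± 0.231 CPM, n = 4 each). Clones V and N change places between the CPM and log2 scales. The order was coarse: of the 8 pairs of neighbours in the order by mean CPM, 6 had overlapping ranges, and the gaps lay between the mono-culture and clone K and between clone T and KPC1. Of the 28 pairs of co-cultures 11 had ranges that did not overlap, and in 6 of these the lower line was KPC1.

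Part of the spread within lines followed the replicate number. Replicate 3 was the lowest library in 7 of 8 lines and replicate 1 the highest in 6, and the number accounted for 57.5% of the within-line variance of log2 CPM. In the mono-culture replicate 4 was lowest and replicate 2 highest. The labels attach no batch, day or culture to a number. The sample titles also carry a serial number, which runs through the co-cultures by replicate number and puts the mono-culture libraries last. What this order stands for is not stated. Any effect of it on the comparison with the mono-culture cannot be told apart from the culture. Without the co-culture libraries numbered 3 the differences from the mono-culture were -3.05 for clone K, -3.77 for clone H, -3.82 for clone E, -4.69 for clone M, -5.15 for clone V, -5.35 for clone N, -5.80 for clone T and -7.08 for KPC1, so clones E and H, and clones V and N, changed places on the log2 scale.

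The identity of the sorted cells was read from marker genes. The 10 fibroblast markers, Col1a1, Col1a2, Col3a1, Pdgfra, Pdgfrb, Vim, Dcn, Lum, Thy1 and Fn1, were all tested and summed to 25816 to 28516 CPM in the mono-culture and 18662 to 41634 CPM in the co-cultures. By the edgeR test described below, 3 were higher, 4 lower and 3 not called, beside 26.1% higher and 26.6% lower of all genes tested. Their log2 fold changes ran from -1.61 for Lum to 0.91 for Pdgfrb. Among 12 markers of simple epithelium, the tumour cell type, 4 had no reads in the mono-culture (Cldn3, Cldn4, Cldn6 and Esrp1). The 8 that were tested summed to 1.07 ± 0.205 CPM in the mono-culture (SD, n = 4) and in the co-cultures to means between 109 ± 94.8 CPM with clone V and 551 ± 103 CPM with clone N. Within clone K the 2 libraries with the lowest epithelial sums, replicates 2 and 1 at 19.6 and 54.4 CPM, had the highest Sprr1a, and replicates 3 and 4, at 256 and 315 CPM, the lowest. Within clone T the order differed, since replicate 1 had the highest sum, 866 CPM, and also the highest Sprr1a. KPC1, with the lowest Sprr1a, had a mean sum of 377 ± 181 CPM, close to the 369 ± 108 CPM of clone E. The part of carried-over tumour RNA in the Sprr1a levels was not tested. In bulk RNA, fewer cells that express a gene and less RNA per cell cannot be told apart.

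Markers of squamous keratinocytes, the cells in which the cornified envelope forms, were mostly near the floor. Of 12 such markers 6 had no reads in the mono-culture, namely Krt1, Krt6a, Krt6b, Krt17, Dsc3 and Dsg3, and Krt5 and Krt14 had 3 reads each over its 4 libraries. The other 4, which were tested, were Sfn, Krt10, Krt16 and Trp63, the gene of the basal epithelial transcription factor p63, and they are named after their values were seen. Trp63 was at 1.82, 2.53, 1.14 and 2.06 CPM in the mono-culture, at 2.64 ± 0.977 CPM with clone K, 1.85 ± 0.580 CPM with clone M and 0.0744 ± 0.0568 CPM with KPC1 (SD, n = 4). Its log2 fold change, mean of the 8 co-cultures minus mono-culture, was -2.19 ± 0.38 (SE, adjusted p = 1.5e-05, edgeR quasi-likelihood test), and it differed among the 8 co-cultures (adjusted p = 4.4e-08). Krt10 was called lower (-0.41 ± 0.17, adjusted p = 4.1e-02), a call lost without mono-culture replicate 1 (-0.29, adjusted p = 0.218) or replicate 2 (-0.29, adjusted p = 0.220), and Sfn, at 5.44 CPM in the mono-culture and 4.71 CPM over the co-cultures, did not pass. Krt16, a keratin of activated keratinocytes, had 2 reads in the mono-culture and entered the test only through the co-cultures. It was at 1.14, 1.08, 1.01 and 1.30 CPM with clone N, the line with the highest epithelial sum, and at 0 to 0.332 CPM in the other lines. It differed among the co-cultures (adjusted p = 4.0e-08) and was not called against the mono-culture (0.80, adjusted p = 9.6e-01).

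The relatives of Sprr1a were tested in the same model. Over all 14439 genes tested, 26.1% were called higher and 26.6% lower in the mean of the 8 co-cultures against the mono-culture, and 72.0% differed among the 8 co-cultures. Of the 15 other Sprr genes, 4 had enough reads to be tested, and each was called lower and each differed among the co-cultures. Sprr3 and Sprr2j-ps entered the test only through their mono-culture reads, so that they could hardly have been called otherwise. Sprr2g reached the filter level in 2 mono-culture and 2 co-culture libraries, too few in either kind alone. The count of these genes is no support. The log2 fold change of Sprr2k, which passed through both kinds of culture, was -3.12, beside a median of 0.01 over all genes tested.

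Sprr2k, another cross-linked envelope precursor, was the only family member besides Sprr1a with reads in every library. It was at 39.4, 50.8, 28.6 and 17.3 CPM in the mono-culture and at 48.5, 13.3, 4.92 and 4.68 CPM with clone K. With clone E it was at 34.9, 9.97, 2.70 and 3.25 CPM, and with KPC1 at 0.211, 0.121, 0.554 and 0.798 CPM. Replicate 1 of clones K and E thus lay inside the mono-culture range, and the other 30 co-culture libraries lay below it. Its change had an SE of 0.49 (adjusted p = 5.6e-06), and the difference among the co-cultures had an adjusted p of 8.8e-04. Sprr3, expressed mainly in internal squamous epithelia, was at 0.913 to 1.76 CPM in the mono-culture and at 0 to 0.471 CPM in the co-cultures (-4.07 ± 0.33, adjusted p = 2.1e-11). Sprr2j-ps fell by 3.92 on the log2 scale (adjusted p = 6.7e-08) and Sprr2g by 2.23 (adjusted p = 8.5e-03), with 50 and 31 reads in the 4 mono-culture libraries and 36 and 96 in the 32 co-culture libraries.

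The remaining Sprr genes were too sparse to test. Sprr2a3 had 46 reads over the 4 mono-culture libraries, 8 to 16 in each, and 22 over the 32 co-culture libraries, of which 19 had none. Sprr2b had 15 reads in the mono-culture and 85 in the co-cultures, up to 30 in a single library. Sprr2h had 7 and 17, Sprr2e 5 and 7, Sprr1b 4 and 3, Sprr2f 3 and 4, Sprr2i 2 and 1, Sprr2d 1 and 7, Sprr2a2 1 and 0, and Sprr2a1 0 and 3. Sprr4 had no reads in any library, which allows up to 3 counts in each library total (12532122 to 21985538). Sprr1b, the closest named relative of Sprr1a, was thus all but unread in cultures where Sprr1a had 2799 to 5509 reads per library. The Sprr2 genes are near-identical copies, and reads may have been split or moved between them, so the values of single Sprr2 genes are uncertain.

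Other precursors of the envelope were mostly silent. Of 31 genes with a row, including filaggrin, involucrin, hornerin, repetin and the late cornified envelope genes, 25 had 3 reads or fewer over the 4 mono-culture libraries and 20 had none. The 3 that were tested, each through reads in both kinds of culture, were called lower, as were 26.6% of all genes tested. Lor, loricrin, the major envelope protein of the skin, was at 2.81, 2.70, 1.83 and 1.51 CPM in the mono-culture and at 6.79, 4.03, 1.16 and 1.03 CPM with clone K. It was at 0.211, 0.121, 0.308 and 0.0570 CPM with KPC1. Loricrin with clone K therefore straddled the mono-culture range, 2 libraries above it and 2 below, and the mean over the 8 co-cultures was lower by -1.87 ± 0.41 (log2, adjusted p = 2.9e-04). Kprp, a keratinocyte proline-rich protein, changed by -2.06 ± 0.32 (adjusted p = 2.5e-06), and its difference among the co-cultures did not pass (adjusted p = 1.5e-01). Tchh, trichohyalin of the hair follicle, was lower by -1.29 ± 0.36 (adjusted p = 3.3e-03). It was at 2.03 and 2.02 CPM in replicates 1 and 2 of clone K, above the highest mono-culture library at 1.43 CPM.

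**Figure D2:**
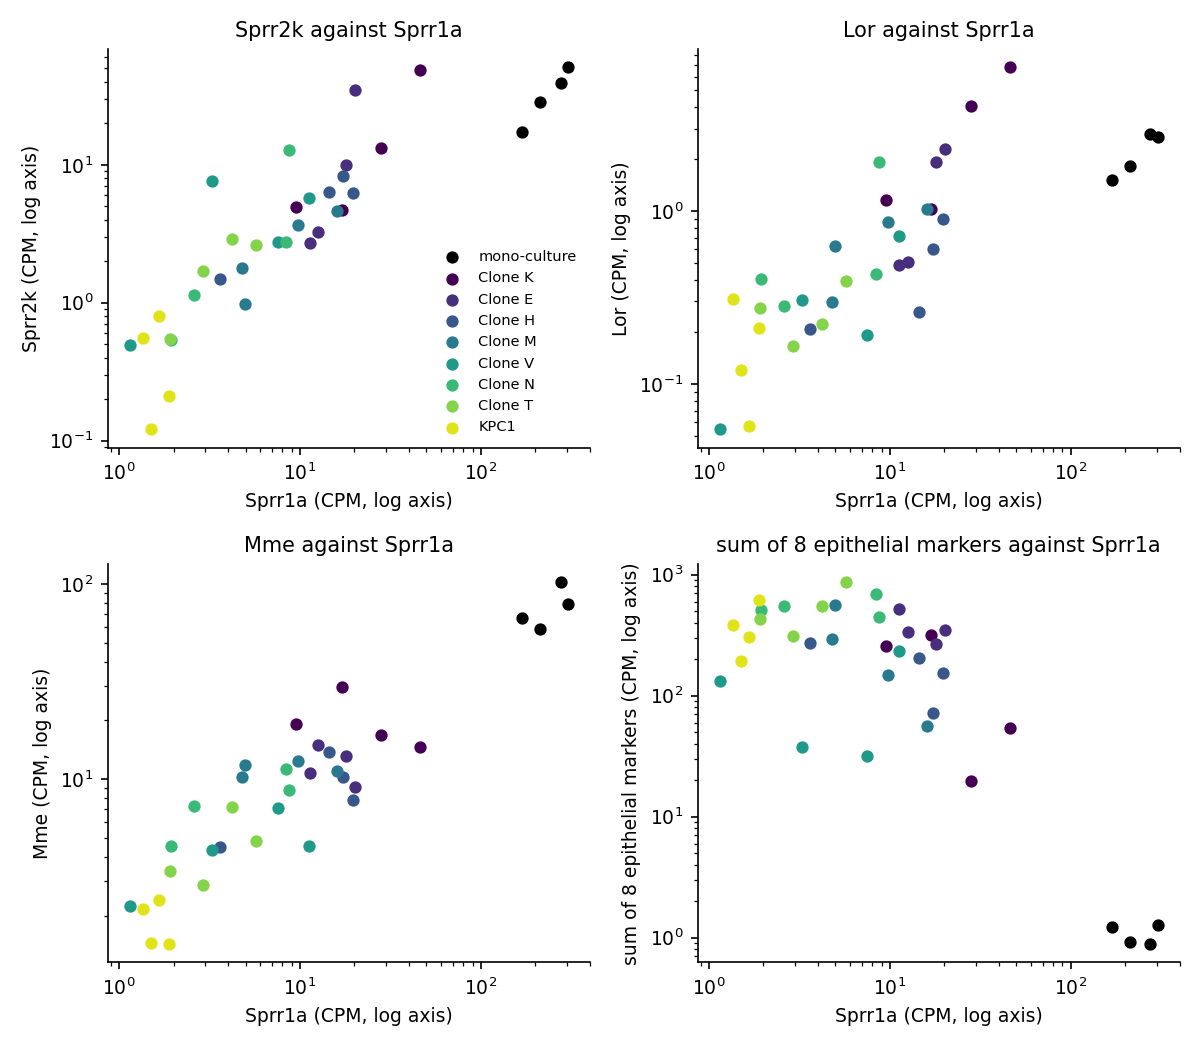
Levels of Sprr2k, Lor, Mme and the sum of 8 epithelial markers (vertical axes, CPM, log) against Sprr1a (horizontal axes, CPM, log), with each point a library coloured by culture. Clone K replicate 1, at 46.2 CPM of Sprr1a, has 48.5 CPM of Sprr2k and 6.79 CPM of Lor, inside and above their mono-culture ranges, while the epithelial sum is at 0.881 to 1.27 CPM in the mono-culture and 19.6 to 866 CPM in the co-cultures. Of the 8 epithelial markers, 7 entered the test only through the co-cultures.

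Along the chromosome, 99 other protein-coding genes start within 2000 kb of the Sprr1a start, and 24 of them were tested. The distances were chosen after the values were seen. Within 500 kb 6 genes were tested, 5 of them lower and 1 higher, the higher one being Gm9774 at 56.5 kb (0.43, adjusted p = 2.8e-02). The 5 were Lor, Sprr2j-ps, Sprr2k, Sprr3 and Kprp, the same genes as above, of which Sprr3 and Sprr2j-ps entered the test only through the mono-culture. From 500 to 2000 kb away 18 genes were tested, of which 4 were higher, 8 lower and 6 not called. With the distances chosen in this way, the counts near and far are a description and were not compared. Of all genes tested 26.1% were higher and 26.6% lower.

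**Figure D3:**
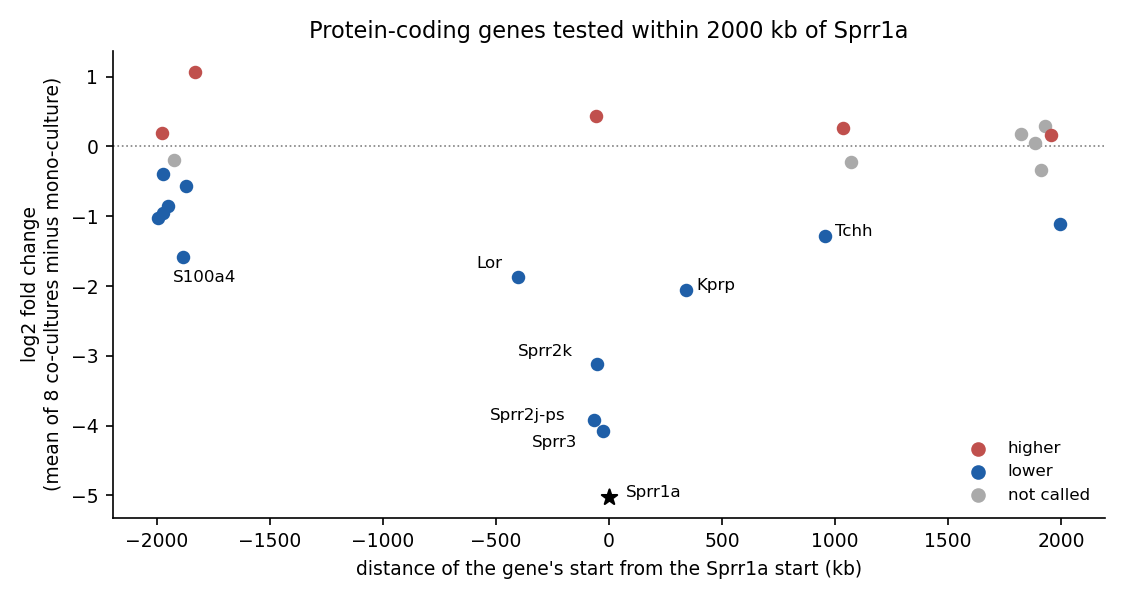
Log2 fold change, mean of 8 co-cultures minus mono-culture, of the protein-coding genes tested within 2000 kb of Sprr1a (black star), against the distance of their start from its start in kb. Red points were called higher, blue lower and grey not called. The 4 lowest points beside the star, Sprr3, Sprr2j-ps, Sprr2k and Kprp, lie between -4.07 and -2.06.

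S100 proteins bind calcium, and those of the complex are expressed well beyond the skin. Of 13 genes 9 were tested, 2 of them higher and 5 lower, with a median of -0.40, and 7 of the 9 differed among the co-cultures. Beside this, 26.1% of all genes tested were higher, 26.6% lower, and 72.0% differed among the co-cultures. S100a4, a marker of motile fibroblasts, was at 443 to 584 CPM in the mono-culture and 21.8 to 522 CPM in the co-cultures, and changed by -1.58 ± 0.23 (adjusted p = 1.1e-06). S100a7a was at 0.456 to 1.01 CPM in the mono-culture and 0.124 to 5.46 CPM in the co-cultures, and was higher by 1.07 ± 0.35 (adjusted p = 1.1e-02). Without mono-culture replicate 3 that call was lost (0.92, adjusted p = 0.0502). S100a7a reached the filter level in 3 mono-culture and 30 co-culture libraries, so the mono-culture alone could not have passed it. S100a8 and S100a9 had no reads in the mono-culture.

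Transglutaminases link the precursors, and envoplakin, periplakin and desmosomal plaque proteins form the scaffold they are linked to. Of 12 genes 9 were tested, and of the 6 that passed the filter through both kinds of culture 1 was higher, 1 lower and 4 not called, with a median of -0.18. Among all genes tested 26.1% were higher and 26.6% lower. Tgm5, a keratinocyte transglutaminase, was at 1.27, 0.605, 2.51 and 0.548 CPM in the mono-culture and had no reads in any library of clone V. It changed by -4.68 ± 0.42 (adjusted p = 3.1e-10) and entered the test only through the mono-culture. Without mono-culture replicate 3 it was -4.09. Anxa1, an annexin also found in envelopes, was lower by -0.47 ± 0.09 (adjusted p = 7.8e-05). Pkp1, a desmosomal plakophilin, was higher by 2.46 ± 0.34 (adjusted p = 4.1e-07), and Evpl, envoplakin, by 3.04 ± 0.83 (adjusted p = 2.5e-03). Evpl was at 0 to 0.110 CPM in the mono-culture and entered the test only through the co-cultures, which also carried the epithelial markers. Whether these scaffold transcripts came from the fibroblasts was not tested. Tgm2, the tissue transglutaminase, was at 21.9 to 30.2 CPM in the mono-culture and 15.3 to 43.8 CPM in the co-cultures and was not called (0.18, adjusted p = 2.2e-01).

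Among AP-1 and partner transcription factors, those called were mostly higher in co-culture. Of 17 AP-1 and partner factors tested, 15 passed the filter through both kinds of culture. Of these 8 were higher, 1 was lower and 6 were not called, with a median of 0.60, and 11 differed among the co-cultures. For all genes tested the shares were 26.1% higher, 26.6% lower and 72.0% differing. Fosl1, the Fos-family protein Fra-1, was at 16.9 to 18.5 CPM in the mono-culture, 30.1 ± 5.55 CPM with clone K and 171 ± 52.4 CPM with KPC1 (SD, n = 4), and its log2 fold change was 2.16 ± 0.24 (adjusted p = 2.0e-08). With clone M, where mean Sprr1a was lower than with clone K, Fosl1 was at 16.8, 20.5, 45.4 and 34.5 CPM. Maff, a small Maf partner, rose by 1.79 ± 0.20 (adjusted p = 1.3e-08) and Mafk by 1.02 ± 0.14 (adjusted p = 2.2e-07). Junb was higher by 0.95 ± 0.25 (adjusted p = 1.7e-03), and Jun by 0.93 ± 0.33 (adjusted p = 1.9e-02), a call lost without mono-culture replicate 1 (0.73, adjusted p = 0.104) or replicate 4 (0.88, adjusted p = 0.0607). Fosl1, Maff, Mafk, Junb, Jun and Fos are named after their values were seen. Fos, the immediate early partner, spanned 47.2 to 450 CPM in the 4 mono-culture libraries and 17.96 to 912 CPM in the co-cultures (-0.11, adjusted p = 8.7e-01). Elf3, an epithelial Ets factor, was higher by 4.66 ± 0.85 (adjusted p = 3.1e-05) from 0 to 0.0550 CPM in the mono-culture, and it too entered the test only through the co-cultures. It had 1 read in the mono-culture, and without replicate 2 of that culture the fitted change was 6.27.

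Pou2f3, the octamer factor of the suprabasal epidermis, was the factor called lower. It was at 1.38, 1.93, 1.29 and 1.33 CPM in the mono-culture and at or below 0.896 CPM in the 32 co-culture libraries, so the groups did not overlap, as was so for 4.17% of all genes tested. The mean was 0.732 ± 0.213 CPM with clone K and 0.0703 ± 0.0522 CPM with KPC1 (SD, n = 4), and the log2 fold change was -2.74 ± 0.28 (adjusted p = 2.1e-09). It differed among the co-cultures (adjusted p = 3.7e-06). At these levels a library held few reads of the gene.

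Of the ligands of gp130, through which Sprr1a is induced in heart muscle, Il6, Lif and Clcf1 were higher in co-culture and Il11, Ctf1 and Cntf were not called. Of 20 genes of this pathway tested, 11 were higher, 1 was lower and 8 were not called, with a median of 0.56, and 14 differed among the co-cultures. The shares over all genes tested were 26.1% higher, 26.6% lower and 72.0% differing. Il6 was at 0.495, 0.550, 0.608 and 0.320 CPM in the mono-culture and at 0.850 to 19.2 CPM in the co-cultures. Every co-culture library lay above the mono-culture, as in 3.57% of all genes tested, and the change was 3.35 ± 0.37 (adjusted p = 1.0e-08). Il6 reached the filter level in 2 mono-culture and 32 co-culture libraries, so the mono-culture alone could not have passed it. Means ran from 1.24 ± 0.464 CPM with clone M to 11.1 ± 5.85 CPM with KPC1 (SD, n = 4). Lif, leukaemia inhibitory factor, was higher by 2.46 ± 0.39 (adjusted p = 5.4e-06), and Clcf1, another ligand of the family, by 1.03 ± 0.15 (adjusted p = 7.8e-07). The values that did not pass were 0.68 for Il11 (adjusted p = 1.1e-01), -0.24 for Ctf1 (adjusted p = 3.4e-01) and 0.16 for Cntf (adjusted p = 6.9e-01), and Osm was too sparse to test. Among receptors Lifr was higher by 0.91 ± 0.17 (adjusted p = 2.7e-05) and Osmr by 0.67 ± 0.17 (adjusted p = 1.6e-03), whereas Il11ra1 was lower by -0.65 ± 0.09 (adjusted p = 3.4e-07). Il6st, which encodes gp130 itself, was at 291 to 414 CPM in the mono-culture and 255 to 440 CPM in the co-cultures and was not called (-0.09, adjusted p = 4.6e-01). The kinase gene Jak2 was higher by 0.97 ± 0.12 (adjusted p = 3.8e-08), and the feedback gene Socs3 did not pass (0.14, adjusted p = 5.7e-01). Lif, Clcf1, Il11, Ctf1, Cntf, Osm, Lifr, Osmr, Il6st, Jak2 and Socs3 are named after their values were seen.

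Of 13 tested genes known to be induced with Sprr1a in injured neurons, 11 passed the filter through both kinds of culture. Of these 2 were higher, 1 was lower and 8 were not called, with a median of 0.14, and 10 differed among the co-cultures. Over all genes tested 26.1% were higher, 26.6% lower, and 72.0% differed among the co-cultures. Anxa2, annexin A2, was lower in all 32 co-culture libraries than in any mono-culture library, at 336 to 640 CPM against 657 to 785 CPM (-0.59 ± 0.09, adjusted p = 2.5e-06). Such a separation was found for 4.17% of all genes tested. Nts, neurotensin, was higher by 3.32 ± 1.02 (adjusted p = 6.7e-03) but was at 0 to 0.0550 CPM in the mono-culture, where it had 1 read, and it entered the test only through the co-cultures, so that it could hardly have been called lower. Without mono-culture replicate 2 the fitted change was 4.92, and without clone M replicate 3 its call was lost (2.95, adjusted p = 0.999999). Atf3, the stress-induced factor that marks injured neurons, was at 5.23 to 8.96 CPM in the mono-culture and 2.05 to 45.1 CPM in the co-cultures and was not called (0.60, adjusted p = 8.9e-02). Over the 7 lists, with each gene counted once and Sprr1a left out, 74 genes were tested. Of the 64 that passed through both kinds of culture, 24 were higher and 13 lower, and 50 differed among the co-cultures, beside the same shares over all genes. Among the 24, Il6 and S100a7a reached the filter level in only 2 and 3 mono-culture libraries. They could not have passed without the co-cultures.

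**Figure D4:**
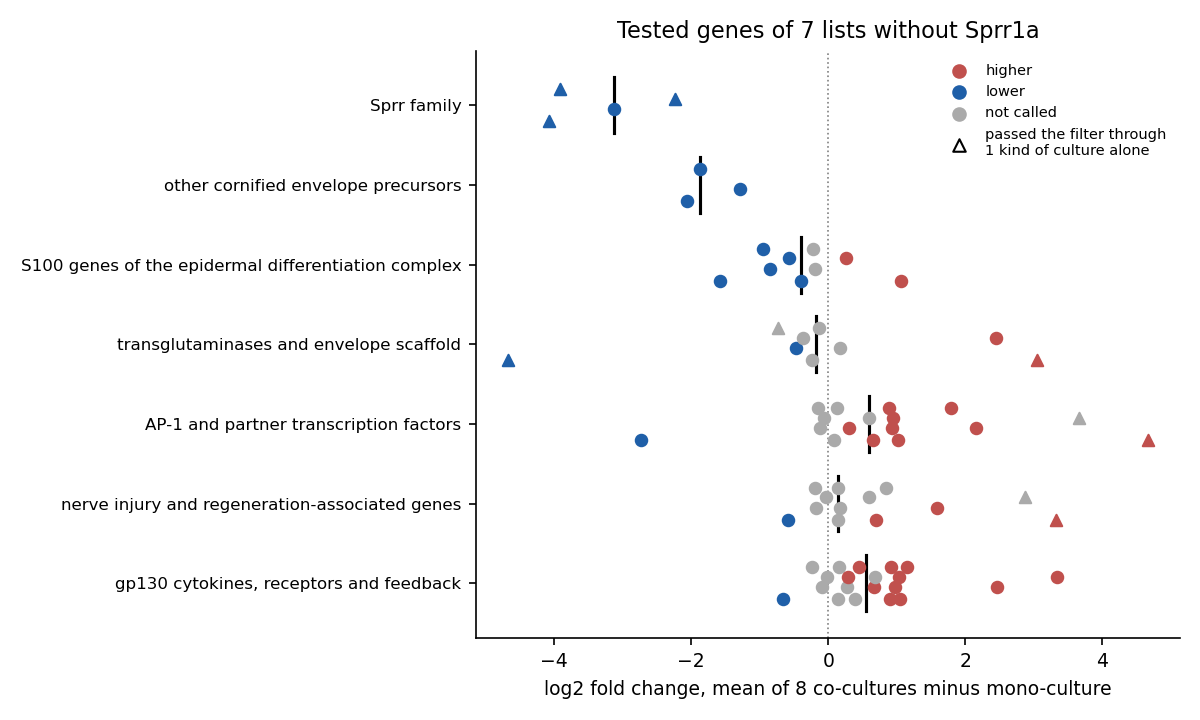
Log2 fold changes, mean of 8 co-cultures minus mono-culture, of the tested genes of 7 lists without Sprr1a. Red points were called higher, blue lower and grey not called, triangles passed the filter through 1 kind of culture alone, and black bars are medians of the genes that passed through both kinds. The bars run from -3.12 for the Sprr family, where Sprr2k alone gives it, to 0.60 for AP-1 and partner factors.

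The genes whose log2 CPM followed Sprr1a most closely over the 36 libraries were found next. They were chosen by that measure among 14438 genes, so their correlations are descriptions and carry no test. The points share cultures and differ in tumour line, and the gap between mono-culture and co-culture enters every value. Over the 36 libraries the 10 highest Pearson correlations included those of Mme (0.92), Cdkl2 (0.91), Slc24a3 (0.90), Cxcl12 (0.89), Ppap2a (0.89), Fam135b (0.89), Gxylt2 (0.88), 9030624J02Rik (0.88) and Sprr2k (0.88). Oxct1 came next at 0.876, just outside. The median over all genes was 0.00, and 125 genes were over 0.8.

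Mme, the membrane peptidase neprilysin, was at 102, 78.7, 58.7 and 67.2 CPM in the mono-culture and between 20.1 ± 6.66 CPM with clone K and 1.86 ± 0.495 CPM with KPC1 (SD, n = 4). Cxcl12, a chemokine of stromal cells, was at 1639, 1667, 1340 and 1279 CPM in the mono-culture. It was at 673 ± 52.4 CPM with clone K, 376 ± 127 CPM with clone E, 95.9 ± 21.9 CPM with clone V and 50.7 ± 11.7 CPM with KPC1. Slc24a3, a sodium, potassium and calcium exchanger, went from 76.2 ± 11.3 CPM in the mono-culture to 18.3 ± 4.72 CPM with clone K and 1.82 ± 0.474 CPM with KPC1. For each of the followers named here except Sprr2k, all 32 co-culture libraries were below the lowest mono-culture library. This was so for 4.17% of all genes tested, and since the gap between mono-culture and co-culture enters the correlation that chose these genes, nothing is read from their count. Clone K was the nearest to the mono-culture and KPC1 the furthest in Mme, Slc24a3, Cxcl12 and Sprr2k.

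The remaining followers covered other functions and moved less or more than these. Cdkl2, a kinase related to the cyclin-dependent kinases, was at 24.1 to 27.7 CPM in the mono-culture and 6.22 to 15.8 CPM in the co-cultures. Gxylt2, which adds xylose to glucose on Notch repeats, was at 64.0 to 79.0 CPM and 7.73 to 25.997 CPM. Ppap2a, a lipid phosphate phosphatase, was at 61.8 to 69.1 CPM and 30.1 to 56.6 CPM, and 9030624J02Rik at 104 to 109 CPM and 52.4 to 90.7 CPM, the smallest change of those named (-0.62 as a log2 fold change). Fam135b was at 1.28 to 1.98 CPM and 0 to 1.11 CPM. Of the 10 followers 6 had a RefSeq promoter window, and in 2 of these, Mme and Sprr2k, it held an AP-1 match. Cdkl2, Slc24a3, Ppap2a, Gxylt2 and 9030624J02Rik overlap other annotated genes, and whether the counting used strand is not stated, so part of their reads could belong to those genes.

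The 5 lowest correlations belonged to Rap1gap2 (-0.89), Aim2 (-0.88), Col18a1 (-0.87), Pgf (-0.87) and Epn2 (-0.86), and in each all 32 co-culture libraries were above the highest mono-culture library (3.57% of all genes), which their choice favours in the same way. Aim2, a cytosolic DNA sensor of the inflammasome, was at 0.110 to 0.275 CPM in the mono-culture, 4.48 ± 3.58 CPM with clone K and 20.3 ± 3.52 CPM with clone T (SD, n = 4). Col18a1, collagen XVIII of basement membranes, was at 105 to 115 CPM in the mono-culture and 152 to 1097 CPM in the co-cultures. Pgf, placental growth factor, was at 2.39 ± 0.548 CPM in the mono-culture, 7.89 ± 1.44 CPM with clone K and 17.2 ± 3.98 CPM with KPC1. Rap1gap2, an inhibitor of the Rap1 GTPase, was at 8.69 to 13.2 CPM and 19.9 to 82.6 CPM. Epn2, an epsin of endocytosis, was at 53.0 to 59.0 CPM and 69.0 to 125 CPM.

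**Figure D5:**
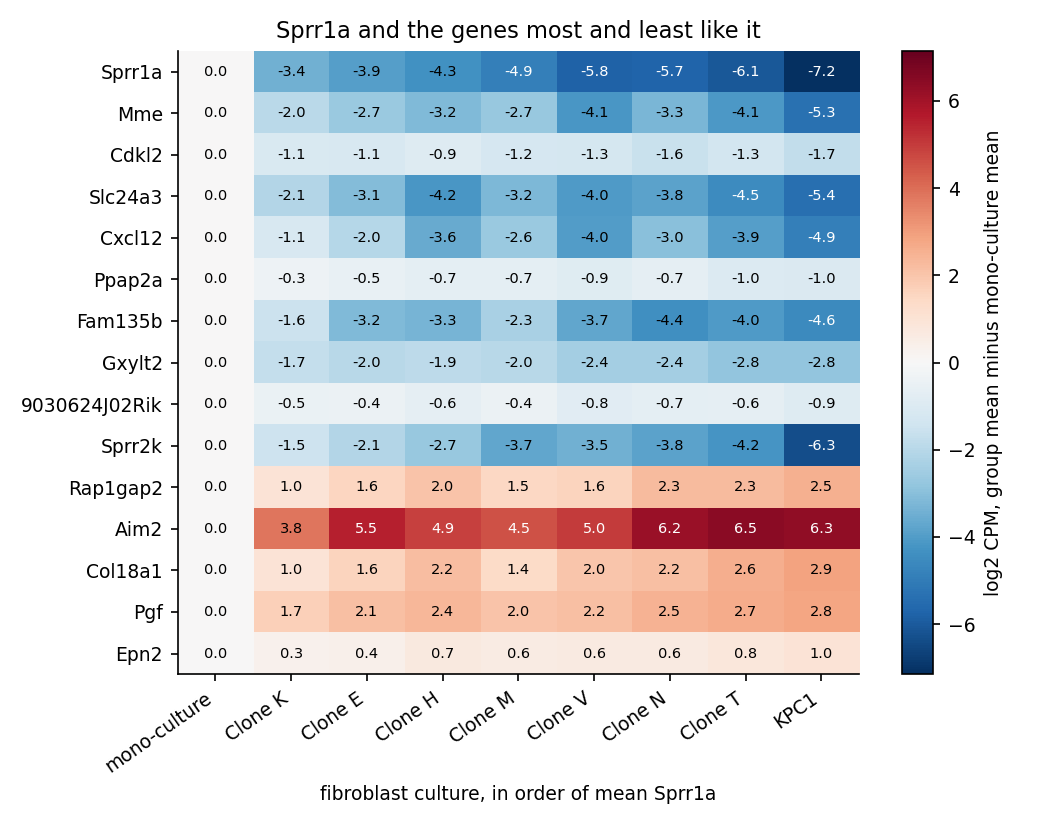
Mean log2 CPM of each culture minus the mono-culture mean for Sprr1a, 9 of the 10 genes with the highest and the 5 with the lowest correlation with it over 36 libraries, with the cultures in order of mean Sprr1a. Blue is lower and red higher than the mono-culture. Sprr1a itself runs from -3.45 with clone K to -7.15 with KPC1.

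Within the co-cultures the list of followers changed. Over the 32 co-culture libraries the 5 highest correlations included those of Sprr2k (0.88), Vps52 (0.85), Peg10 (0.83) and Lor (0.83), followed just outside by Mme at 0.825, and 9 genes were over 0.8. With the group means removed over the 36 libraries, so that only the spread between libraries of the same culture was left, the highest were Vps52 (0.86), Susd2 (0.80), Bmp3 (0.80), Sprr2k (0.79) and Tro (0.78), with Gng7 next at 0.778. Sprr2k was the 1 gene present in all 3 lists. The last list also holds the shift that went with the replicate number. With the mean of each number removed as well, over the 32 co-culture libraries, Sprr2k was at 0.60 and rank 375 of 14438 genes, Susd2 at 0.59 and rank 390, and Bmp3 at 0.68 and rank 102. Vps52 was then at 0.78 and rank 3, Tro at 0.72 and rank 40, and Lor at 0.72 and rank 49.

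Vps52, a subunit of the tethering complex that returns vesicles to the Golgi, varied little, from 55.4 to 65.0 CPM in the mono-culture and 34.7 to 64.0 CPM in the co-cultures. With clone K it was at 62.8, 63.8, 56.9 and 53.9 CPM, and with KPC1 at 38.3, 34.7, 39.1 and 40.4 CPM. It overlaps Rps18 on the other strand. Peg10, an imprinted gene derived from a retrotransposon, was at 126, 138, 107 and 117 CPM in the mono-culture, 140, 110, 86.4 and 89.0 CPM with clone K and 29.4, 30.5, 34.1 and 35.1 CPM with KPC1. Bmp3, a bone morphogenetic protein, was at 8.20, 8.64, 4.79 and 8.91 CPM in the mono-culture and had no reads in any KPC1 library. Susd2, a sushi-domain membrane protein, was at 15.4 to 23.8 CPM in the mono-culture and 1.25 to 25.2 CPM in the co-cultures. Tro, trophinin, was at 8.64 to 11.6 CPM and 3.11 to 18.2 CPM, so these 2 genes overlapped the mono-culture range while following Sprr1a within cultures.

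Markers of the other cell types were few. Over all genes tested 26.1% were higher and 26.6% lower, and with 1 to 4 genes tested in a list nothing is read from the counts. Among macrophage and leukocyte genes 4 were tested, with 1 higher (Cd68) and 1 lower (Lyz2), and Ptprc had no reads in the mono-culture. Among endothelial genes 3 were tested and 1 was lower (Tek), among Schwann cell and neuron genes 3 were tested and 1 was lower (S100b), and the 1 mesothelial gene tested, Msln, was higher. Of the 5 mesothelial markers, 3 had at most 3 reads in every library, so the sum of that list rests on few genes. Whether the Msln reads came from the fibroblasts was not tested. The summed levels of these lists ranged, in the mono-culture and the co-cultures, over 13.7 to 16.5 and 5.63 to 33.4 CPM for macrophages, 1.75 to 3.09 and 1.12 to 6.39 CPM for endothelium, 4.63 to 6.56 and 1.66 to 9.42 CPM for Schwann cells and neurons, and 8.61 to 15.1 and 3.57 to 70.5 CPM for mesothelium. Their part in the levels of Sprr1a was not tested. Library totals were 12532122 to 21985538 counts, and any 2 libraries of a group differed by more than counting noise, the chi-square over genes being at least 5.84 per degree of freedom in the 54 pairs.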

How the data were processed

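The authors deposited whole-number counts of reads per gene for 39017 genes in 36 libraries, not normalised, and RPKM values for 37746 of these genes. Submitters' processing notes name STAR, featureCounts, edgeR and mm10, without versions or roles, and the strand setting of the counting is not given in the sources used here. Strand-specific poly(A) libraries used 200 ng of RNA and 14 PCR cycles, with paired reads of 76 bp. PCR duplicates make counting floors cover counting error only. The paper supplied with the series describes the tumour clones and not these fibroblast libraries, so groups come from the labels alone.

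Tests on counts used edgeR 4.0.16 (R 4.3.3). filterByExpr on the 9 groups kept 14439 genes (about 0.555 CPM or more in 4 libraries), TMM scaled the libraries, and quasi-likelihood fitting of the 9 group means gave the mean of 8 co-cultures minus mono-culture and an F-test on 7 contrasts among co-cultures, with Benjamini-Hochberg adjustment over all genes tested and a threshold of 0.05. A gene was taken to pass through both kinds of culture with at least 1 mono-culture and 4 co-culture libraries over the filter level. Such a gene may still have passed on the co-cultures alone. SE of fold changes were derived from the F-statistic. log2 CPM used a prior count of 1. Correlations were Pearson's r across libraries. Sprr1a, the lists and the alternatives were chosen with earlier results of these data known. Named genes were Sprr1a, the 10 highest and 5 lowest r over 36 libraries, the 5 highest over 32 and with group means removed, the Sprr genes, and the highest and lowest called gene of each list. One gene within these is not reported here. Other genes in the text were named after their values were seen. Gene models were GENCODE M21, and promoter windows and motifs came from RefSeq on GRCm38.p6. The procedure was tested on simulated counts. Results were repeated with other filters, prior counts and thresholds, RLE or no scaling, DESeq2 1.42.0, limma 3.58.1 on log2(RPKM + 1) and log2(RPKM + 0.1), Spearman's rho, a replicate block, and leaving out libraries.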

Additional observations from a re-analysis of the deposited data

Results flagged for a closer look

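Within groups of 4 libraries, the gap between an extreme library and its nearest neighbour, as a share of the whole range, was above Dixon's 95% critical value in 7 of 124 sets, where chance alone gives about 1 in 20, or 6.2. Sprr2j-ps in clone N replicate 1 and in clone T replicate 4, Sprr3 in clone M replicate 1 and Fam135b in KPC1 replicate 3 each had a ratio of 1, because the other 3 libraries of the group had no reads. Cdkl2 was apart in KPC1 replicate 1 (0.852, at 6.22 CPM). Gxylt2 was apart in mono-culture replicate 3 (0.914, at 64.0 CPM) and in clone E replicate 1 (0.835, at 12.3 CPM). Sprr1a itself had no such library in any group.

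The 4 Sprr genes tested beside Sprr1a had changes that differed among the 8 co-cultures by the edgeR F-test: Sprr2k with an adjusted p of 0.00088, Sprr3 with 0.0033, Sprr2g with 0.032 and Sprr2j-ps with 0.038. All but Sprr2k rest on few reads. Over the 32 co-culture libraries Sprr3 had 59 reads, Sprr2g 96 and Sprr2j-ps 36, with none in 9, 11 and 16 libraries. A single library held 29 of the 96 reads of Sprr2g. Over all genes tested 72.0% differed in this way.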

How the results depend on the processing

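The lower Sprr1a level in each of the 8 co-cultures kept its direction under every alternative run. With log2(RPKM + 1) the difference of KPC1 from the mono-culture was -6.69 in place of -7.15. Leaving out 1 library at a time gave -3.82 to -3.06 for clone K, -4.11 to -3.80 for clone E, -4.58 to -3.77 for clone H, -5.23 to -4.66 for clone M, -6.06 to -5.33 for clone N, -6.23 to -5.15 for clone V, -6.32 to -5.80 for clone T and -7.31 to -7.02 for KPC1. Of the 10 genes most like Sprr1a, 6 stayed among the first 10 with log2(RPKM + 1), 6 with Spearman's rho (Sprr2k then first), and 7 to 10 without a single library.

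Of the 74 list genes tested, 44 differed from the mono-culture and 59 among the co-cultures, with 41 to 47 and 55 to 62 without a single library. Over all genes tested 26.1% were higher and 26.6% lower than the mono-culture, and 72.0% differed among the co-cultures. Without the co-culture libraries numbered 3, an alternative chosen after seeing the data, the counts were 42 and 52, 7 of the 10 followers stayed, and Sprr2k moved from rank 10 to rank 51. With 10 or more counts required in every library they were 30 and 41, since fewer genes were tested. With the replicate block they were 47 and 64, and 7 of the 10 followers stayed. The main tests did not pair the samples by number. Of the pairs of same-numbered co-culture libraries 63 of 112 correlated over 0.1, and 24 of 32 co-culture libraries correlated best with their own number. With a mono-culture library 5 of 32 pairs correlated over 0.1, and 0 of 4 mono-culture libraries correlated best with their own number. A shift shared by same-numbered co-cultures is thus left in the main tests and in the correlations over 36 and 32 libraries.

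For 36 named genes, 1622 of 1641 values under alternatives kept direction and call, but the size of many folds did not hold. With log2(RPKM + 1) the change of 15 called genes moved by over 1.5 times, each nearer to 0, among them Tgm5 (-0.50), Sprr3 (-0.95), Sprr2j-ps (-0.93), Pou2f3 (-0.52), Trp63 (-0.25), Lor (-0.69), Kprp (-0.70), Elf3 (0.38), Nts (0.29) and Il6 (1.89). With log2(RPKM + 0.1) 8 did, among them Tgm5 (-2.04), Sprr3 (-2.83), Pou2f3 (-1.81), Elf3 (1.73) and Nts (1.30). A pseudocount of that size pulls the change of a low gene toward 0. Without a single library the change moved so far in Elf3 (6.27) and Nts (4.92) without mono-culture replicate 2, and in Tgm5 (-4.09) without mono-culture replicate 3. The direction turned only in genes that were not called: Fos (0.22 with log2(RPKM + 1), 0.23 with log2(RPKM + 0.1), and -0.46 to 0.51 without a single library), Socs3 (-0.056 to 0.62) and Il6st (-0.15 to 0.012). Socs3 passed without mono-culture replicate 3 (0.62, adjusted p = 0.0069). Krt10 missed the threshold with no filter (adjusted p = 0.082), Evpl with log2(RPKM + 1) (adjusted p = 0.054), and Nts and Krt10 without the libraries numbered 3. The cause of these shifts was not tested. Genes under about 1 CPM rest on few reads, which limits their values.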
